A study of Mus musculus with 8 samples.

Results

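The genes described here are 7 that stood out for a high level in ventricle and a low level in atrioventricular (AV) cushion of the embryonic mouse heart: Mb, Lrtm1, Sox3, Slc1a1, Tmem88b, Yipf7 and Mal. They were picked by symbol for their large fold changes toward ventricle in the wild type libraries, so that contrast is given below as a description with no test. All 7 were found among the 22869 symbols of the count table, and all 7 were among the 14940 symbols that passed the filter on low counts. RNA came from C57BL/6 embryos at E12.5 and was sequenced as total RNA after removal of ribosomal RNA, in 4 groups of 2 libraries. The groups combine cushion or ventricle tissue with a wild type or a mutant genotype. The mutants carry the genotype label NfatC1+/-; KLF2fl/fl, that is, loxP-flanked Klf2 on both copies together with an altered Nfatc1 allele. The labels do not say whether that allele carries a recombinase or is a loss of 1 Nfatc1 copy, and so do not say in which cells Klf2 is lost. The controls are labelled wild type, although the design text names floxed Klf2 mice. The labels do not tell whether paired libraries are separate embryos or pools, so p-values measure only the spread between these samples.

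The ventricular wall is built of cardiomyocytes, and at this stage its inner side is a meshwork of muscle ridges called trabeculae. AV cushions are swellings of matrix and mesenchyme, lined by endocardium, that lie on the myocardium of the AV canal and give rise to valves and septa. A dissected cushion can therefore hold some muscle, and a gene that is high in ventricular muscle can be read in a cushion library from AV canal muscle or from neighbouring ventricle. Mb encodes myoglobin, the haem protein that binds oxygen in striated muscle. Slc1a1 encodes a sodium-dependent transporter for glutamate and cysteine. Sox3 encodes an HMG-box transcription factor of the SOXB1 group, known from neural progenitors. Mal encodes a small membrane protein with several membrane spans, found in lipid rafts and known from T cells, myelin and polarized epithelia. Tmem88b is a paralogue of Tmem88, whose product dampens WNT signalling. Lrtm1 encodes a transmembrane protein with leucine-rich repeats, and Yipf7 a membrane protein of the YIP1 family.

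Promoter windows are shown for Mb, the member with the highest level, and for Lrtm1 and Tmem88b, which differed in how they behaved in the mutant cushion libraries. All were high in ventricle, but so were the genes whose windows are not shown. The genes shown are those whose windows hold an element marked below. The windows come from RefSeq on build GRCm38.p6, and 5 of the 7 genes had such an entry. They run 5′ to 3′ on the gene's own strand, from 250 bases before to 50 bases after an annotated start. Mb has 3 annotated starts, and the window shown is chr15:77022738-77023037 (minus strand). The others are chr14:29017958-29018257 (plus strand) for Lrtm1 and chr4:155785825-155786124 (minus strand) for Tmem88b. Capitals mark CACCC, the core of sites bound by Krüppel-like factors, and GATAA, the core of sites bound by GATA factors, each searched on both strands.
Mb: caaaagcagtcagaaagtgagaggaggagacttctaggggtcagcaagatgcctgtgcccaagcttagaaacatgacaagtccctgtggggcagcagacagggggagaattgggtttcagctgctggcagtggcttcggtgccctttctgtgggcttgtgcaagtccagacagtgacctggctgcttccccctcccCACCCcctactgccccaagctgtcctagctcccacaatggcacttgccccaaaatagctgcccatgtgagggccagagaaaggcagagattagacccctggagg
Lrtm1: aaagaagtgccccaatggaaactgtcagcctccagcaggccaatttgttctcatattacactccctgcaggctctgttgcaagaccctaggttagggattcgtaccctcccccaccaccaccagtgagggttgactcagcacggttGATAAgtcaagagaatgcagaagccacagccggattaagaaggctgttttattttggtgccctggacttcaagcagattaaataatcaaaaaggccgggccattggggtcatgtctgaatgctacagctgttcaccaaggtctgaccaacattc
Tmem88b: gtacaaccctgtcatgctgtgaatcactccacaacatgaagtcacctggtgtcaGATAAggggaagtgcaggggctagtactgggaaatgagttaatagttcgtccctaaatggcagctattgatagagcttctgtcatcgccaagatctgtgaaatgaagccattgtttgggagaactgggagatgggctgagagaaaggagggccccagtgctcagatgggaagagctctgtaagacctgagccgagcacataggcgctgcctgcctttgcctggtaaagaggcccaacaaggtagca

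The Mb window shown, the second of the 3 by position, held 1 CACCC, beginning 54 bases before the start, and no GATAA. The other Mb windows held 0 and 2 CACCC and no GATAA, and the choice among them was made after the matches were seen. The window with 2 CACCC overlaps the one shown, and its match 114 bases before its own start is the same site as the match shown. The Lrtm1 window held 1 GATAA, 104 bases before the start, and the Tmem88b window 1 GATAA, 196 bases before it. Neither held CACCC. The windows of Slc1a1 and Mal, which were also high in ventricle and are not shown, held no CACCC and no GATAA. The genes shown are thus those with a marked element, and such elements were not common to all genes with a window. Of all 32851 promoter windows of the same length, 57.5% held CACCC and 25.4% held GATAA. The elements known by the names MEF2 element and CArG box, which muscle regulators bind, were in 1.86% and 1.63% of all windows and in none of the 7 windows of these genes. The windows are a description of the sequence only, as the data hold no measurement of factor binding.

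Library totals, with 1 row kept per symbol, lay between 18955733 and 26579215 counts. Levels are CPM, that is, counts scaled to a common library size, after scaling of the libraries by TMM, and 1 CPM stood for 18.7 to 25.3 reads. On the first principal component, with 63.0% of the variance, mutant cushion replicate 2 was at -22.8 and the other 3 cushions between -54.9 and -46.3, while the ventricle libraries lay from 35.0 to 50.3. Replicates 1 and 2 were separated on the second component in every group. Klf2 was at 0.625 to 1.96 CPM in the 4 libraries labelled as mutant and at 9.19 to 17.3 CPM in the wild type ones. Markers of the labelled tissues were in place: in the mutants, cushion mesenchyme markers were lower in ventricle in 13 of 13 genes, 8 of them past the test, and ventricular markers were higher in 13 of 13, 6 past the test.

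Mb was by far the most abundant of the genes, and its level in every ventricle library was above that in every cushion library. In wild type cushions it was at 19.4 and 25.7 CPM in replicates 1 and 2, and in wild type ventricles at 153.0 and 192.5 CPM. In mutant cushions it was at 24.2 and 56.3 CPM, and in mutant ventricles at 186.9 and 300.2 CPM. In all 4 groups replicate 2 was the higher library, and mutant cushion replicate 2 was more than the other cushion libraries. Mb held between 73.5% and 84.3% of the counts of the 7 genes in each library. Its 3 rows in the table had totals of 20657 to 20658 counts and so appear to count the same reads.

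Lrtm1 was low in wild type cushions and clearly measured in ventricles. It was at 0.986 and 0.514 CPM in wild type cushions and at 13.04 and 15.0 CPM in wild type ventricles. In mutant cushions it was at 2.70 and 0.738 CPM, and in mutant ventricles at 10.01 and 12.3 CPM. Here mutant cushion replicate 1, with 55 counts and a 95% exact binomial interval of 2.03 to 3.51 CPM, was the high cushion library, and replicate 2, with 17 counts and an interval of 0.430 to 1.18 CPM, lay among the wild type libraries. Such intervals cover counting error only. Lrtm1 overlaps Cacna2d3, a gene on the opposite strand in GENCODE vM21, and the strand setting of the counting is not given in the sources used here. Cacna2d3 itself had 9 to 28 counts per library, with 17 and 19 in the mutant cushions.

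Sox3 was nearly silent in cushion. It had 4 and 3 counts in the wild type cushion libraries, 2 and 6 in the mutant cushion libraries, 59 and 50 in wild type ventricles, and 75 and 52 in mutant ventricles. As CPM this was 0.188 and 0.119 in wild type cushions, 0.0981 and 0.261 in mutant cushions, 3.15 and 2.64 in wild type ventricles, and 3.07 and 2.32 in mutant ventricles. The cushion libraries cannot be ranked among themselves at this depth, as their 95% exact binomial intervals overlapped, with 0.0119 to 0.354 CPM for the lowest and 0.0956 to 0.567 CPM for the highest. The tissue gap is far wider than this counting error.

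Slc1a1 was even in 3 of the 4 cushion libraries and high in the other. It was at 0.798 and 0.673 CPM in wild type cushions, and at 0.834 and 2.30 CPM in mutant cushions. In wild type ventricles it was at 4.70 and 5.39 CPM, and in mutant ventricles at 3.80 and 5.94 CPM. Mutant cushion replicate 2, with 53 counts against 17 in each of the other 3, again lay above the rest and below the ventricles. The protein-coding gene 4430402I18Rik overlaps Slc1a1 on the opposite strand. It had 25 and 42 counts in wild type cushions, 13 and 57 in mutant cushions, and 52 to 72 in ventricle. Its highest cushion library was thus also mutant cushion replicate 2, and reads from these genes may be shared. The part of shared reads in the Slc1a1 values was not tested.

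Tmem88b was at 2.96 and 1.78 CPM in wild type cushions and at 14.2 and 17.7 CPM in wild type ventricles. It was at 2.45 and 4.17 CPM in mutant cushions and at 16.7 and 21.3 CPM in mutant ventricles. The cushion libraries of both genotypes overlapped, and all lay far below the ventricles.

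Yipf7 was at 0.516 and 1.54 CPM in wild type cushions and at 5.88 and 8.03 CPM in wild type ventricles. It was at 1.13 and 4.34 CPM in mutant cushions and at 5.80 and 6.88 CPM in mutant ventricles. Mutant cushion replicate 2 came closest to the ventricles for this gene, while the other 3 cushion libraries stayed low.

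Mal was at 1.55 and 1.11 CPM in wild type cushions and at 6.74 and 9.72 CPM in wild type ventricles. It was at 0.785 and 2.21 CPM in mutant cushions and at 6.62 and 7.06 CPM in mutant ventricles. The mutant cushion libraries lay on either side of the wild type ones. Its 2 rows had totals of 743 and 758 counts, and the larger was used.

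**Figure D1:**
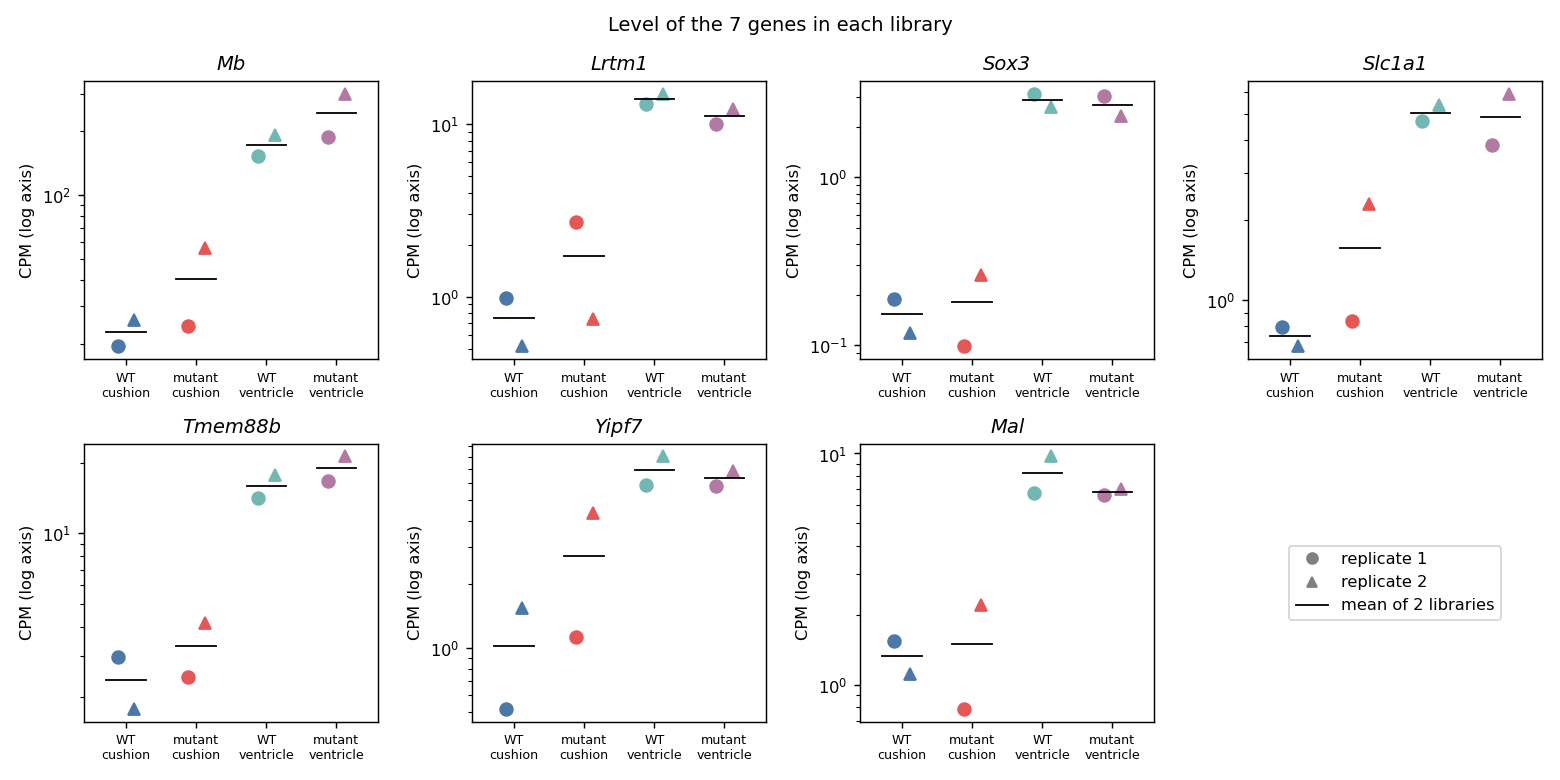
Level of each of the 7 genes in CPM (logarithmic axis) in the 8 libraries, with circles for replicate 1, triangles for replicate 2 and a bar for the mean of 2 libraries. Every ventricle library lies above every cushion library for all 7 genes, and among cushions the triangle of the mutants is the highest point for all but Lrtm1.

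To compare these genes with each other, levels were divided by length, as CPM per kilobase of the longest coding transcript in GENCODE vM21. That length may differ from the one the reads were counted on. Where other paragraphs call a gene the most abundant or the highest, they refer to levels without this step. In wild type ventricles Mb was at 156.5 ± 25.3 CPM per kilobase (SD, n = 2), far above the other 6. Next came Yipf7 at 5.70 ± 1.25 and Tmem88b at 4.60 ± 0.729 (SD, n = 2), which did not differ beyond their spread. Mal followed at 2.96 ± 0.759, Lrtm1 at 1.92 ± 0.189, Sox3 at 1.40 ± 0.176 and Slc1a1 at 1.33 ± 0.127 CPM per kilobase (SD, n = 2), and the last pair did not differ beyond their spread either.

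The wild type contrast, on which the genes were chosen, gave fitted log2 fold changes of ventricle over cushion of 4.24 for Lrtm1, 4.21 for Sox3, 2.94 for Mb, 2.77 for Slc1a1, 2.76 for Tmem88b, 2.72 for Yipf7 and 2.63 for Mal. Their ranks by fold change toward ventricle were 2, 3, 11, 16, 17, 18 and 25 of 14940. Both ventricle libraries were above both cushion libraries for all 7, as for 31.8% of all genes tested. The 10 largest fold changes also included Opalin, Mal2, Rims4, 2310034O05Rik, Bcl2l15, Bmp10, Gm1574 and Ifi205. Of these Bmp10, which encodes a growth factor of trabecular and atrial muscle, was at 118.0 CPM in wild type ventricle, and the other 7 were below 2 CPM there. Just outside the last of the 7 in rank was Fgf1, with a log2 fold change of 2.62.

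Ventricle and cushion of the mutants are libraries that the choice did not use, although the fit takes its estimate of spread from all 4 groups. All 7 genes were again higher in ventricle, with a median log2 fold change of 2.51 against -0.01 over all genes tested, and 5 passed an adjusted p of 0.05 in edgeR's quasi-likelihood test. Over all genes, 3.26% passed in this direction and 6.16% as lower in ventricle. Fitted on the 4 mutant libraries alone, 2 of the 7 passed, Sox3 and Tmem88b, and Mb, Lrtm1 and Mal had adjusted p of 0.0576, 0.0535 and 0.0519 in edgeR. Sox3 had a log2 fold change of 3.84 ± 0.47 (SE, adjusted p = 0.0029 in edgeR), with a range of 3.34 to 4.70 when 1 library was left out. Its cushion counts alone would not have passed the filter on low counts, so it was kept for its ventricle level. By counts alone the Sox3 ratio was 14.7, with a 95% exact Poisson interval of 7.24 to 34.8. Lrtm1 had 2.71 ± 0.50 (SE, adjusted p = 0.0177 in edgeR), then Mb with 2.60 ± 0.45 (adjusted p = 0.0199), Tmem88b with 2.51 ± 0.32 (adjusted p = 0.00346) and Mal with 2.17 ± 0.42 (adjusted p = 0.0177).

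Slc1a1, with a log2 fold change of 1.62 ± 0.43 (SE), and Yipf7, with 1.20 ± 0.61 (SE), did not pass in edgeR (adjusted p = 0.0521 and 0.282). Slc1a1 passed in DESeq2 (adjusted p = 0.00779), in limma-voom (0.0448), without the filter on low counts (0.0377) and with a correction for GC content and length (0.0332), and Yipf7 in none of these. With the replicate number as a block both passed (adjusted p = 0.00192 and 0.0156), and all 7 genes then passed, beside 10.5% of all genes in that direction and 13.4% in the other. Every ventricle library was above every cushion library for all 7, as for 24.2% of all genes. By fold change toward ventricle Sox3 ranked 2, Lrtm1 11, Mb 14, Tmem88b 15, Mal 29, Slc1a1 116 and Yipf7 309 of 14940 in the mutants. Without mutant cushion replicate 2 all 7 passed, Slc1a1 with a log2 fold change of 2.54 (adjusted p = 0.0153 in edgeR) and Yipf7 with 2.49 (adjusted p = 0.0417). Without mutant ventricle replicate 2 only Sox3 and Tmem88b passed, and Mb had an adjusted p of 0.0987, Lrtm1 of 0.0893 and Mal of 0.0744 in edgeR. Without mutant cushion replicate 1 the call for Mal ended (adjusted p = 0.0758 in edgeR), and the log2 fold changes were 3.91 for Lrtm1, 3.34 for Sox3 and 0.55 for Yipf7. These are bulk samples, in which fewer cells of a type and less RNA per cell cannot be told apart.

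**Figure D2:**
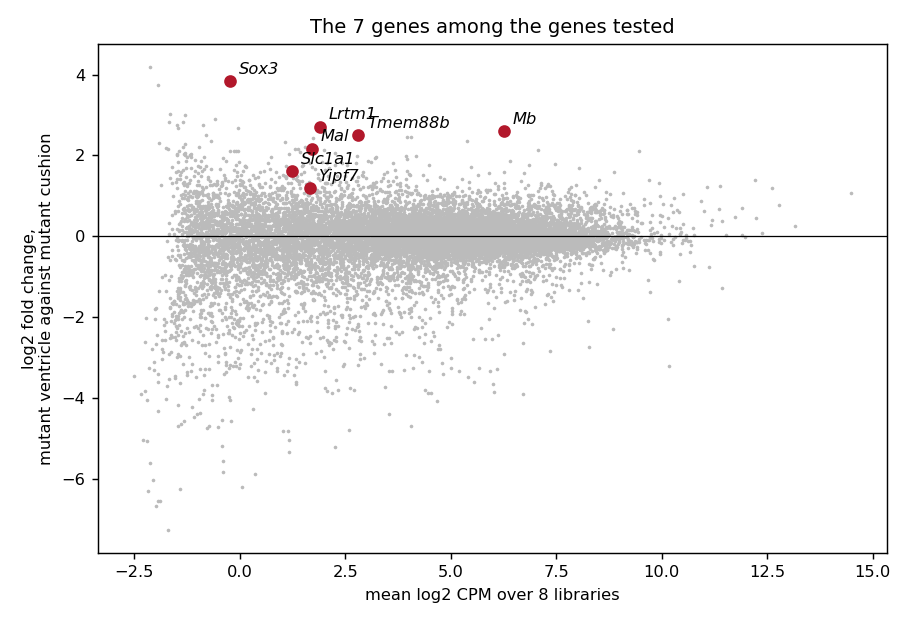
Log2 fold change of mutant ventricle against mutant cushion for each gene tested (grey) against its mean log2 CPM over 8 libraries, with the 7 genes in red. The 7 lie between 1.20 (Yipf7) and 3.84 (Sox3), and Mb is the member with the highest mean level.

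Cushions of the 2 genotypes were compared next, to ask whether these genes differ with genotype in the tissue where they are low. Its wild type libraries also served to choose the genes for low cushion levels, so a higher mutant value is in part built into the choice. All 7 fitted values were above 0, with a median log2 fold change of 0.84 against -0.01 over all genes, and none of the 7 passed in edgeR, where 0% of all genes passed. None of the 7 had an unadjusted p under 0.05, against 11.4% of all genes. The values ran from 0.20 ± 0.46 (SE) for Mal and 0.27 ± 0.66 for Sox3, through 0.50 ± 0.34 for Tmem88b, 0.84 ± 0.43 for Mb, 1.11 ± 0.50 for Slc1a1 and 1.19 ± 0.60 for Lrtm1, to 1.39 ± 0.68 for Yipf7. The smallest adjusted p among them was 0.442 in edgeR, for Slc1a1, which was also the only one whose groups did not overlap, as 24.5% of all genes did in that direction. With the replicate number as a block 3 of the 7 had an unadjusted p under 0.05, against 23.8% of all genes, and the smallest adjusted p was 0.0803, for Mb. With that block 0.863% of all genes passed.

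Single libraries carried these cushion differences. Without mutant cushion replicate 2 the log2 fold change was 0.10 for Mb, 0.19 for Slc1a1, 0.06 for Tmem88b, 0.10 for Yipf7, -0.59 for Sox3 and -0.75 for Mal, and 1.86 for Lrtm1. Without mutant cushion replicate 1 it was 1.32 for Mb and 1.64 for Slc1a1, and 0.00099 for Lrtm1. So 6 genes had their highest cushion level in replicate 2 of the mutant cushions, and Lrtm1 had it in replicate 1. For Sox3, Tmem88b and Mal the 95% exact binomial interval of mutant cushion replicate 2 overlapped that of wild type cushion replicate 1. Among all genes tested, 28.1% had their highest cushion level in mutant cushion replicate 2 and 21.4% in mutant cushion replicate 1.

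Set against the mean ventricle level of the same genotype, the cushion level of the 7 genes had a median of 11.2% in wild type cushion replicate 1, 13.3% in wild type cushion replicate 2, 12.9% in mutant cushion replicate 1 and 23.1% in mutant cushion replicate 2. In that last library Yipf7 reached 68.5% of its ventricle level, Slc1a1 47.3%, Mal 32.4%, Mb 23.1%, Tmem88b 22.0%, Sox3 9.67% and Lrtm1 6.62%. The genes thus did not sit at 1 common share of the ventricle level. In mutant cushion replicate 1 Lrtm1 was at 24.2%, above the other 6, which lay between 3.64% and 17.8%. The low shares in wild type cushions are in part built into the choice of the genes.

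**Figure D3:**
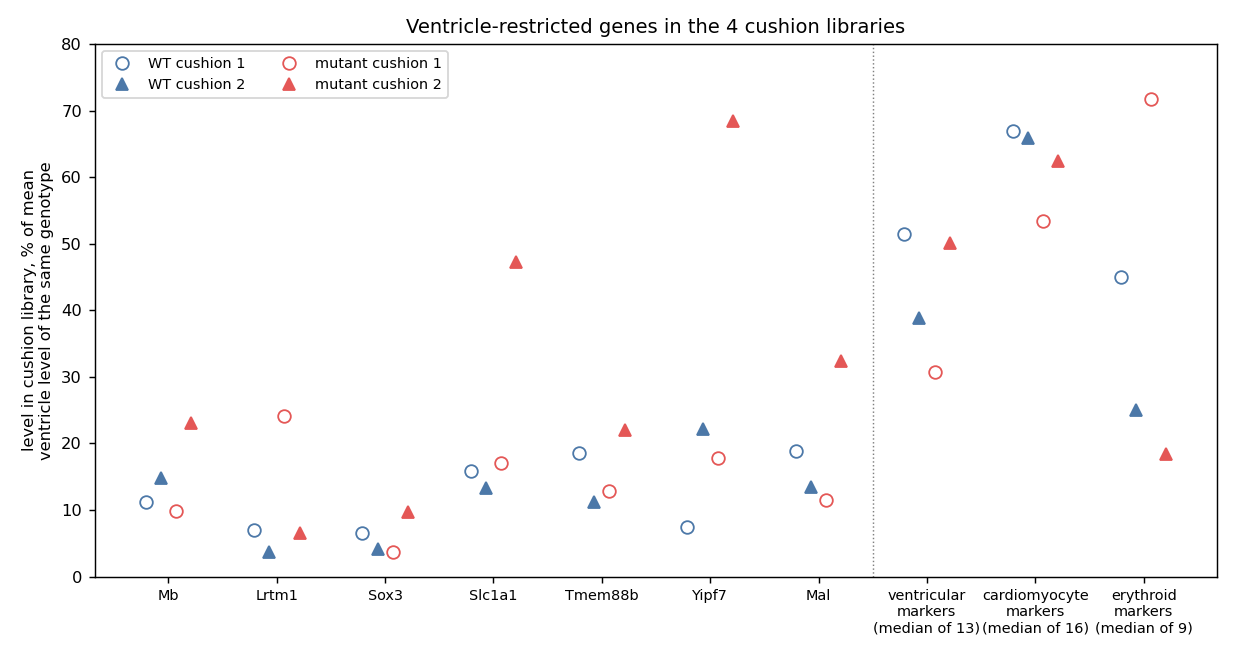
Level in each of the 4 cushion libraries as a percentage of the mean ventricle level of the same genotype, for the 7 genes and, to the right of the dotted line, the median of 3 marker lists. Mutant cushion replicate 2 (filled red triangle) is the highest cushion library for 6 genes, and mutant cushion replicate 1 (open red circle) for Lrtm1 and for the erythroid markers.

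Marker lists read the same libraries in other ways. The 7 genes were chosen for large wild type fold changes toward ventricle, so higher shares in other lists are in part built in. Pan-cardiomyocyte markers had a higher median share than the 7 genes, at 53.4% to 67.0% of the ventricle level across the cushion libraries. None of the 16 was at 0 in any library. Their summed level was 31730 to 45560 CPM in cushion and 38740 to 95860 CPM in ventricle. Ttn alone took 1.09% to 6.48% of the counts, and in each group its share was the larger in replicate 1. Of 13 ventricular markers, 7 had their highest cushion level in mutant cushion replicate 2, 5 in wild type cushion replicate 1, 1 in wild type cushion replicate 2 and 0 in mutant cushion replicate 1. Their median share of the ventricle level was 51.5% and 38.8% in wild type cushions and 30.7% and 50.2% in mutant cushions, and their summed level was 7610 to 10460 CPM in cushion and 17640 to 21170 CPM in ventricle. Their part in the cushion differences of the 7 genes was not tested.

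Muscle genes did not all have the same high cushion library as Mb. Of 16 pan-cardiomyocyte markers 3, and of 16 muscle energy genes 4, were highest in mutant cushion replicate 2, against 9 and 11 in wild type cushion replicate 2. Myh7, the slow myosin heavy chain and the most abundant ventricular marker, was at 5967 and 3767 CPM in wild type cushions and at 4678 and 3725 CPM in mutant cushions, lowest in mutant cushion replicate 2. Myl2, the ventricular myosin light chain, was at 3374 and 2733 CPM in wild type cushions and at 2074 and 3965 CPM in mutant cushions. Smpx, a small muscle protein, was at 204.8 and 156.4 CPM and at 145.0 and 317.8 CPM. Nppa, the atrial natriuretic peptide gene, was at 242.2 and 334.9 CPM in wild type cushions and at 142.2 and 754.0 CPM in mutant cushions, against 1295 to 2490 CPM in ventricles. Bmp10 was at 11.6 and 11.04 CPM in wild type and 8.53 and 40.9 CPM in mutant cushions, against 104.3 to 146.4 CPM in ventricles. For Myl2, Smpx, Nppa and Bmp10 mutant cushion replicate 2 was the highest and mutant cushion replicate 1 the lowest cushion library. None of these 4 passed between the genotypes in cushion (edgeR, adjusted p from 0.52 to 0.986). Nppa and Bmp10 were read as part of a list of 8 atrial markers. Of that list 4 were highest in mutant cushion replicate 2 and 4 in wild type cushion replicate 2. Among the latter was Myl7, at 849.1 and 1586 CPM in wild type and 1123 and 1198 CPM in mutant cushions.

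Markers of other cell types were read for the same reason. Erythroid markers had their highest cushion level in mutant cushion replicate 1 in 9 of 9 genes, the library in which Lrtm1 was high. Their summed level was 1931 and 843.1 CPM in wild type cushions, 3813 and 984.4 CPM in mutant cushions, and 2496 to 8218 CPM in ventricles, higher in replicate 1 of every group. Hbb-y, an embryonic globin gene, was at 3101 CPM in mutant cushion replicate 1 and at 634.2 to 1562 CPM in the other cushions. Adult globin genes of this list came in pairs with equal or nearly equal levels in every library. Each pair appears to count the same reads, so the 9 genes are fewer separate readings, and the sum holds such reads more than once. Lrtm1 was higher in replicate 1 of both cushion groups and in replicate 2 of both ventricle groups. The part of blood cells in the Lrtm1 values was not tested. Epicardial markers had their highest cushion level in mutant cushion replicate 1 in 5 of 7 genes. Mutant cushion replicate 2 was highest for 4 of 5 leukocyte markers tested and for 5 of 8 endocardial markers. It was highest for 0 of 13 cushion mesenchyme markers, of which 12 were highest in wild type cushion replicate 1. Of 6 markers of AV canal muscle it was highest for 0, with 2 and 3 highest in wild type cushion replicates 1 and 2 and 1 in mutant cushion replicate 1. The part of these cell types in the values of the 7 genes was not tested.

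Neural markers, read because Sox3 and Mal are known from neural tissue, were low in ventricle, with a summed level of 6.21 to 9.35 CPM over 10 genes there and 26.2 to 46.3 CPM in cushion. Of the 8 tested, 3 were lower in mutant ventricle than in mutant cushion in edgeR and 0 higher, opposite in direction to Sox3 and Mal. T-cell genes were read because of Mal, and neither Cd3e nor Cd4 passed the filter on low counts.

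**Figure D4:**
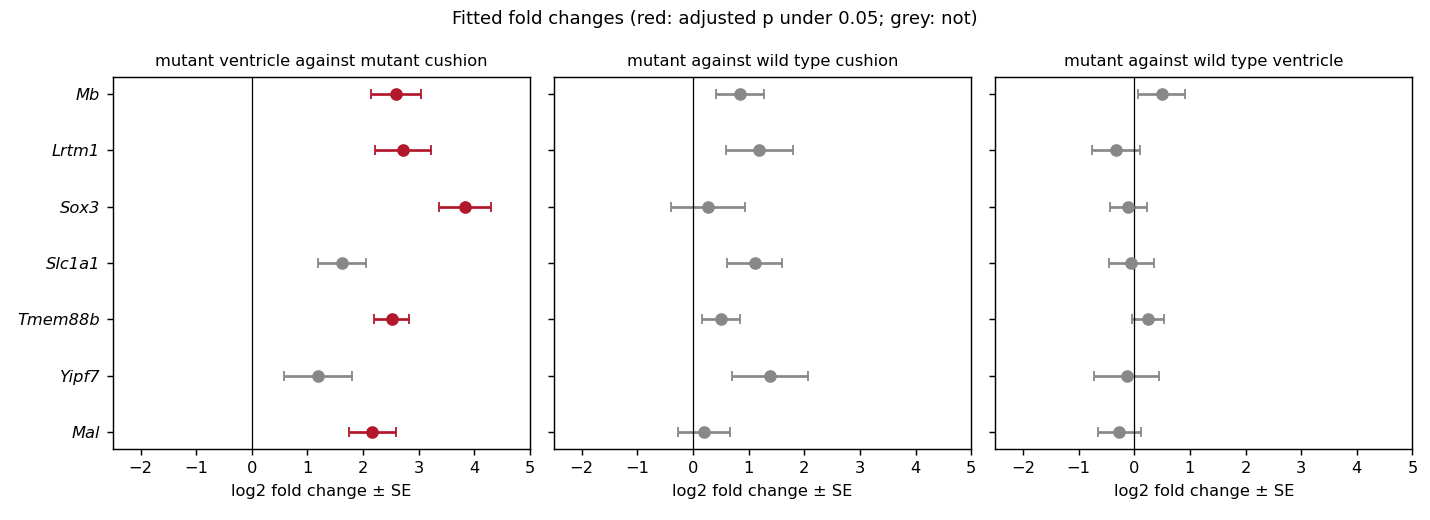
Fitted log2 fold change with its standard error for the 7 genes in 3 comparisons, in red where the adjusted p was under 0.05 in edgeR. Red points occur only in the panel of mutant ventricle against mutant cushion, for Mb, Lrtm1, Sox3, Tmem88b and Mal.

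Between ventricles of the 2 genotypes, none of the 7 genes passed. The wild type ventricles also served to choose the genes for a high level there, so a lower mutant value is in part built into the choice. Of the fitted values 2 were above 0 and 5 below, with a median log2 fold change of -0.10, and none passed in edgeR or had an unadjusted p under 0.05. Over all genes 0% passed and 2.29% had an unadjusted p under 0.05. Mb had the largest value, 0.50 ± 0.42 (SE), with mean levels of 172.7 ± 27.9 CPM in wild type and 243.5 ± 80.1 CPM in mutants (SD, n = 2), and its libraries overlapped. Lrtm1 had the lowest, -0.33 ± 0.44 (SE), and was the only gene whose ventricle groups did not overlap, at 14.02 ± 1.38 CPM in wild type and 11.1 ± 1.60 CPM in mutants (SD, n = 2). 14.6% of all genes were separated in that direction. Tmem88b had a value of 0.25, Slc1a1 of -0.05, Sox3 of -0.10, Yipf7 of -0.13 and Mal of -0.27. With the replicate block 1 of the 7, Mb, had an unadjusted p under 0.05, against 7.28% of all genes, and none passed, against 0.00669% of all genes (smallest adjusted p = 0.674 in edgeR). The cushion and ventricle comparisons of genotype were not tested against each other for these genes.

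Energy genes of muscle leaned the same way as Mb in the mutant tissue comparison. All 16 fitted values were above 0, with a median log2 fold change of 0.76, and 6 passed in edgeR, or 13 with the replicate block. Ldhb, a lactate dehydrogenase subunit, passed with 0.97 (adjusted p = 0.0108), Acadm, an enzyme of fatty acid oxidation, with 0.71 (adjusted p = 0.0471), and Cpt1b, which moves fatty acids into mitochondria, with 1.09 (adjusted p = 0.0266). Eno3, the muscle enolase, had 0.63 and did not pass (adjusted p = 0.0623). None of the 16 passed between genotypes in either tissue. Of the 13 genes listed as known regulators of the Mb gene, among them MEF2 and calcineurin-NFAT genes, 2 were lower and 0 higher in mutant ventricle, or 3 lower and 5 higher with the block. Mef2c, a muscle transcription factor gene, was at 108.2 ± 11.5 CPM in wild type and 162.8 ± 0.639 CPM in mutant cushions (SD, n = 2). Its log2 fold change of 0.59 passed only with the block (adjusted p = 0.435 in edgeR, and 0.0454 with the block). With the block 1 of the 13 was higher and 1 lower in mutant than in wild type cushion. The lower one was Nfatc4, with a log2 fold change of -0.69 (adjusted p = 0.435 in edgeR, and 0.0454 with the block).

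Close relatives of the 7 genes did not share their ventricle pattern as a set. Of 22 paralogues listed, 21 were found and 17 tested. Among these 0 were higher and 2 lower in mutant ventricle than in mutant cushion in edgeR, or 2 higher and 4 lower with the block, with a median log2 fold change of -0.01. Sox2, the SOXB1 relative of Sox3, ran the other way. It was at 2.63 and 2.02 CPM in wild type cushions and at 5.49 and 4.95 CPM in mutant cushions, and at no more than 0.160 CPM in the ventricles, with a log2 fold change of -5.85 for mutant ventricle over mutant cushion (adjusted p = 0.00166 in edgeR). Slc1a5, a neutral amino acid transporter of the Slc1a family, was even, at 40.3 ± 6.80 CPM in wild type cushion and 39.6 ± 0.0431 CPM in wild type ventricle (SD, n = 2). Yipf4, Yipf5 and Yipf6 had log2 fold changes of -0.20, -0.31 and 0.04 in the mutant tissue comparison, none past the test.

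Among genes of glutamate and glutathione metabolism, read beside Slc1a1, 1 of 10 passed as higher in mutant ventricle and 0 as lower, or 5 and 0 with the block. The one was Got2, the mitochondrial aspartate aminotransferase, with a log2 fold change of 0.76 (adjusted p = 0.0346 in edgeR).

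Across the 8 libraries the log2 CPM of the 7 genes moved together, with a Pearson r between pairs from 0.726, for Lrtm1 with Yipf7, to 0.977, for Mb with Slc1a1. These values are a description, since the points share the tissue difference for which the genes were chosen. By the same measure the genes most like Mb were Clic5 (r = 0.997), Uqcrq and Nnt, and Adrb3 (r = 0.978) was among the 3 most like Lrtm1. Osbpl3, Jph1 and Dlst were most like Sox3, and Ndufs3, Lmod3 and Cpa4 most like Slc1a1. Fam65b, Dnaja4 and Ripk4 were most like Tmem88b, Agk, Il18 and Agpat9 most like Yipf7, and Gyg, Ube2t and Apobec2 most like Mal.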

How the data were processed

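RNA was sequenced in 8 libraries, and the authors deposited raw counts per transcript row, named by gene symbol, with 28644 rows. All 8 tables hold identical content, and 1 of them was used. Bowtie 0.12.7 and build mm9 are named in the submitters' processing notes, while for the counting program, annotation and strand setting the sources used here give nothing. Of several rows for a symbol, that with most counts was used. Counts were tested in R 4.3.3 with edgeR 4.0.16: TMM, filtering by group, a robust quasi-likelihood fit over all 4 groups, two-sided, with p-values adjusted by Benjamini-Hochberg over 14940 symbols, at a threshold of 0.05. Each standard error is the size of the log2 value over the square root of F, and log2 CPM used a prior count of 2. The edgeR fit was also run on counts simulated from its own estimates of spread, with no replicate effect. That run cannot tell whether those estimates are right for these libraries. DESeq2 1.42.0 and limma 3.58.1 (voom), other scalings, filters and fits, and leaving out each library were alternatives. The correction for GC content and transcript length, from GENCODE vM21 with 90.2% of genes matched, was chosen after seeing the data.

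The genes and lists were chosen with earlier results of these data known. Genes named beside the 7 are the 3 most like each by Pearson r among genes of at least 1 CPM, the 4 with the highest mean level in each list, non-members among the top 10 of the wild type contrast, and Klf2, Nfatc1 and Ttn. Some genes that this rule names are not reported here. Cacna2d3 and 4430402I18Rik are named for their overlap, Fgf1 for its rank just outside, and Cd3e and Cd4 as filtered list genes. Nfatc4 is named as the listed regulator that was lower in mutant cushion with the block. The labels do not say what a replicate number marks. Replicate deviations correlated across genes in all 6 pairs of groups (r from 0.341 to 0.522), so blocked values stand beside results they change, as a pairing seen in the data.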

Additional observations from a re-analysis of the deposited data

How the results depend on the processing

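In the mutant tissue comparison 1407 genes passed, against 641 with only the 4 libraries compared, 3572 with the replicate block, 4441 with the GC and length correction and the block, and 309 to 1301 with 1 library left out. Of the 7 genes 5 passed, against 2 with only the 4 libraries compared (Mb 0.0576, Lrtm1 0.0535 and Mal 0.0519 as adjusted p in edgeR), 7 with the replicate block, 6 each in DESeq2, in limma-voom, without the filter and with the GC and length correction (Slc1a1 added), and 2 to 7 with 1 library left out. All 7 stayed above 0 under every setting run. In mutant against wild type cushion 0 genes passed, against 25 in DESeq2, 2 in limma-voom, 5 without the filter, 1 with only the 4 libraries, 129 with the block, 1 with the GC and length correction, 69 with that and the block, and 0 to 1 with 1 library left out. In ventricle 0 passed, against 1 in DESeq2, 1 with only the 4 libraries, 1 with the block, 1 with the correction and block, and 0 to 1 with 1 library left out. None of the 7 passed between genotypes under the settings run, of which the cushion fit on 4 libraries tested only 6, without Sox3. The replicate block changed no other call among the 7 than Slc1a1 and Yipf7.

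With 1 library left out the cushion log2 fold change ranged from -0.59 to 0.77 for Sox3 and from -0.75 to 0.74 for Mal, and the ventricle one from -0.31 to 0.082 for Sox3, -0.41 to 0.24 for Slc1a1, -0.31 to 0.11 for Yipf7 and -0.48 to 0.023 for Mal. The GC and length correction turned the ventricle value of Slc1a1 to 0.016. Over 13483 genes the log2 fold change between genotypes had a Spearman rho with GC content of -0.618 in cushion and 0.47 in ventricle. In the mutant tissue comparison it was 0.17. With the correction the cushion values were 0.63 for Sox3, 0.97 for Mb, 1.11 for Lrtm1 and 1.06 for Slc1a1. They were 0.45 for Tmem88b, 1.08 for Yipf7 and 0.15 for Mal. The median share of the ventricle level ranged from 10.06% to 12.7% and 11.3% to 14.3% in wild type cushions 1 and 2 and from 11.1% to 14.7% and 19.4% to 30.1% in mutant cushions 1 and 2 with 1 ventricle library left out. The cause of these changes was not tested. Depth limits Sox3, with 2 to 6 counts per cushion library.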

Other observations

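Trabecular and chamber genes outside the naming rule, picked after their values were seen, were also read in the cushion libraries. Gja5, a gap junction gene, was at 62.5 and 123.4 CPM in wild type cushions and at 55.2 and 176.1 CPM in mutant cushions. Cited1, a transcriptional cofactor gene of compact and trabecular muscle, was at 45.03 and 75.2 CPM and at 31.7 and 109.3 CPM. Nppb, the B-type natriuretic peptide gene, was at 76.6 and 73.6 CPM and at 53.4 and 311.7 CPM. Mutant cushion replicate 2 was the highest and mutant cushion replicate 1 the lowest cushion library for all 3 of these genes. Other ventricular markers ran differently. Hand1, a transcription factor gene, was lowest in mutant cushion replicate 2, at 1.69 CPM against 1.97 to 3.32 CPM in the other cushions, and Irx1, Irx2, Mycn and Myh7 were highest in wild type cushion replicate 1. Irx4, a ventricular transcription factor gene, was at 33.2 and 27.8 CPM in wild type cushions and at 19.3 and 25.7 CPM in mutant cushions, so both mutant cushion libraries lay below the wild type ones.

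Mal2, a relative of Mal, had 0.909 and 1.58 CPM in wild type ventricles and at most 0.119 CPM in wild type cushions, and 0.0981 and 0.434 CPM in mutant cushions.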
